A study of Mus musculus with 7 samples.

Results

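The cells described here are the proliferating macrophages of CT-2A gliomas, a mouse glioma line grown in the brain, taken as all cells that the authors' deposited annotation names Macrophages (Proliferating). There were 402 such cells among 28644 cells of 7 mice, each mouse giving 1 single-cell RNA library of sorted live CD45+ and/or CD11b+ cells of the tumour-bearing hemisphere. The KO group held 4 mice with the tamoxifen-activated Cre recombinase of the Sall1 locus and floxed Siglece (Sall1CreERT2 x Siglecefl/fl, alleles B6;129-Sall1<tm5(cre/ERT2)Ryn> and B6.129P2-Siglece<tm1Bcgen>). The WT group held 3 mice with floxed Siglece and without the driver, so all 7 mice carried the floxed allele. Mice of both groups were engrafted at 8 to 12 weeks of age and all received tamoxifen, 2.5 mg per injection, daily from day 7 to day 21 after tumour injection and every other day thereafter. Sall1 is a transcription factor of microglia, so the driver marks microglia and is not directed at cells derived from blood monocytes. Tissue was frozen after dissociation and thawed before the sort.

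Macrophages of a growing brain tumour are fed by blood monocytes, which enter the tissue, lose monocyte genes such as Ly6c2 and Ccr2, and gain complement and lipid-handling genes. Some of these cells re-enter the cell cycle: DNA is copied in S phase with helicase, polymerase and histone genes switched on, and the chromosomes are parted in mitosis with kinesins, kinases and cyclins. The comparison made here was with the annotations Monocytes (P1-P2), Macrophages (P3) and Macrophages (P5), 7075 cells together and called the pool below. Their names P1 to P5 are the authors'. The question was which genes set the proliferating cells apart from these beyond the cell cycle genes themselves.

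The number of proliferating macrophages was 37, 37, 10 and 23 in KO mice 1 to 4, and 138, 46 and 111 in WT mice 1 to 3. KO mouse 3, with 10 cells, was left out of all values below that need a sum of these cells, unless it is named or 7 mice are given. It was kept in the marker levels and marker sums of the other annotations, and in the T cell ratios. The remaining 6 mice gave 235732 to 1826659 UMIs (unique molecular identifiers, counts of RNA molecules) per mouse over these cells. The authors' phase calls placed 336 of the 402 cells (83.6%) in G2M, 61 (15.2%) in S and 5 (1.24%) in G1. The cells held a median of 10050 UMIs, against 5730, 6073 and 6437 in P1-P2, P3 and P5, and their median was higher than that of each of these annotations in 6 of 7 mice. KO mouse 1 held the highest median, 18768 UMIs per proliferating macrophage, with 6817 to 8413 in the other KO mice. The median share of mitochondrial UMIs was 3.02% in the proliferating cells, 1.55% in P1-P2, 1.76% in P3 and 2.7% in P5. The part of cell size, depth and RNA quality in the differences below was not tested.

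The label was checked against its markers on the scale of CPM, the UMIs of a gene in the summed cells of a mouse scaled to a total of 1000000. Mki67, a nuclear protein of cycling cells, was at 779 ± 80.0 CPM (SD, n = 6 mice), the second highest of 23 annotations after the proliferating CD8+ T cells. Top2a, the topoisomerase that untangles sister chromatids, was at 469 ± 56.0 CPM and also ranked second. Tgfbi, an extracellular matrix protein of monocytes and macrophages, was at 1322 ± 366 CPM and ranked next after P1-P2 and P3. Tgfbi therefore separated these cells from lymphocytes and not from the pool, where its level was 1660 CPM and the log2 ratio was -0.36 ± 0.45. The 12 monocyte and macrophage markers were all detected and summed to 10060 to 13611 CPM (mean 12092). This mean was below those of P1-P2 (19635 CPM), P3 (17283 CPM) and P5 (16665 CPM), which include KO mouse 3.

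Most markers of other cells were set beside P5, and those of neutrophils and microglia beside P1-P2 and P3 as well. The 13 T cell markers summed to 21.9 to 204 CPM, beside 20.1 to 101 CPM in P5, whereas T cells themselves held 5599 to 8485 CPM. All 5 mast cell or basophil markers were at 0. Of 11 myeloid progenitor markers 6 were detected, summing to 2.90 to 42.4 CPM beside 3.66 to 16.5 CPM in P5, and Ctsg, Elane, Gata2, Mpo and Ms4a3 were at 0. Of 8 neutrophil markers 6 were detected, summing to 13.1 to 49.8 CPM beside 38.3 to 57.2 CPM in P5, with Ly6g and Retnlg at 0. Their mean sum was 26.4 CPM, beside 168 CPM in P1-P2 and 101 CPM in P3. Of 12 tumour or stromal markers 8 were detected, summing to 7.25 to 87.0 CPM beside 22.8 to 85.3 CPM in P5, with Col1a1, Col1a2, Igfbp5 and Ptn at 0. The NK cell markers summed to 2.57 to 33.9 CPM, beside 8.89 to 37.0 CPM in P5. Those of conventional dendritic cells, all 9 detected, summed to 21.8 to 140 CPM (mean 52.0), beside 30.4 to 49.5 CPM in P5 (mean 36.3) and 2482 to 3772 CPM in conventional dendritic cells themselves. Those of plasmacytoid dendritic cells summed to 164 to 364 CPM, beside 279 to 336 CPM in P5. Markers of brain macrophages were well above 0 in both the proliferating cells and P5. The 9 microglia markers, all detected, summed to 423 to 1654 CPM (mean 818), beside 459 to 1474 CPM in P5 (mean 793), 151 CPM on average in P1-P2, 314 CPM in P3 and 4763 to 7721 CPM in microglia themselves. The 8 border-associated macrophage markers summed to 315 to 1057 CPM, with Cd163 and Lyve1 at 0, beside 472 to 1169 CPM in P5. The part of such cells in the results below was not tested. A count of 0 in these sums allows up to 1.64 to 12.7 CPM per mouse (3 counts of the total), which covers counting error only. Of the 402 cells, 7 had a barcode that also occurred in another library.

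Proliferating macrophages made up 11.1%, 3.42%, 2.28% and 2.63% of the cells named monocyte or macrophage in KO mice 1 to 4, and 8.85%, 3.20% and 6.34% in WT mice 1 to 3. The exact 95% binomial intervals, which cover counting error only, ran from 7.97 to 15.0% in KO mouse 1 and from 1.10 to 4.15% in KO mouse 3. KO mouse 1 stood above all the other mice, and the remaining KO mice lay at or near the lowest WT mouse. The mean was 4.87 ± 4.21% (SD, n = 4) in KO and 6.13 ± 2.83% (n = 3) in WT mice, a difference smaller than the spread within either group (two-sided exact permutation test, p = 0.629, adjusted p = 0.629 over 4 shares). With 4 against 3 mice, the smallest p this test can give is 0.0286.

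Among all sorted cells, the share was 0.981 ± 1.11% in KO mice (n = 4) and 2.85 ± 1.84% in WT mice (n = 3), and the groups overlapped (exact permutation p = 0.171, adjusted p = 0.629). S phase cells were 18.8 ± 13.3% of the proliferating macrophages in KO mice and 12.4 ± 6.19% in WT mice (exact permutation p = 0.514, n = 4 and 3, adjusted p = 0.629). In the pool, 11.2 ± 8.95% of the cells of KO mice and 14.4 ± 4.42% of those of WT mice were called S or G2M (exact permutation p = 0.629, n = 4 and 3, adjusted p = 0.629). The lowest and highest shares of S or G2M in the pool were 4.43% in KO mouse 3 and 24.1% in KO mouse 1, the same mice that had the lowest and highest share of proliferating macrophages among monocytes and macrophages. None of the 4 shares differed between the genotypes by this test. Where a mouse had a low share, fewer such cells in its tumour and a poorer recovery in dissociation, freezing and sorting cannot be told apart.

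**Figure D1:**
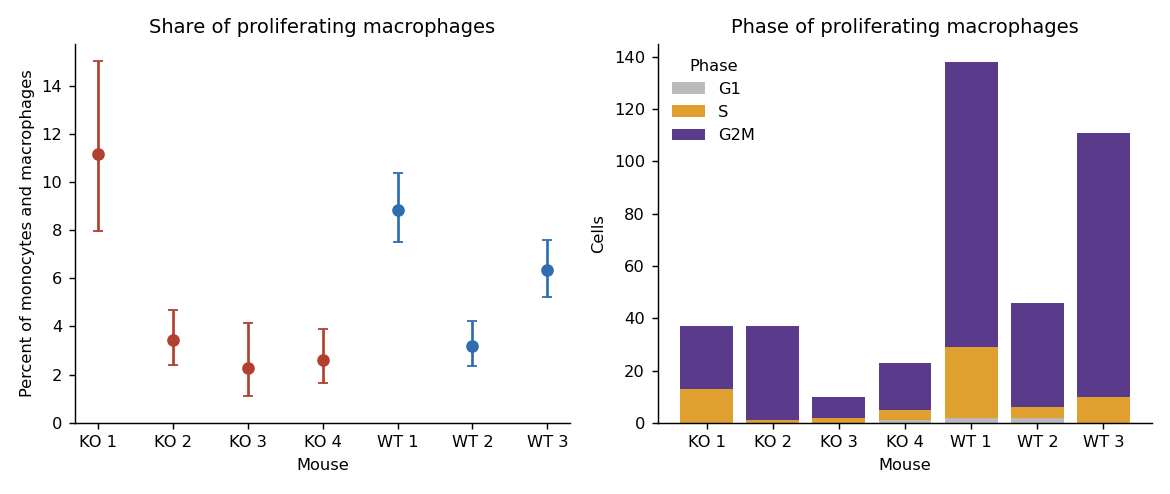
Left, proliferating macrophages as a percent of all cells named monocyte or macrophage, 1 point per mouse with exact 95% binomial intervals, KO in red and WT in blue. Right, the number of proliferating macrophages per mouse by the authors' phase call; KO mouse 1 stands highest at 11.1% on the left, and G2M makes up the largest part of every bar on the right.

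Genes were compared within each mouse as the log2 ratio of CPM (with 1 CPM added) of the proliferating cells over the pool. A gene was counted as higher or lower when the ratio passed 1 on the log2 scale, which is 2-fold, in each of the 6 mice. Since the annotation was made from these genes, these ratios are a description, with no test. Of 6432 genes with a mean of at least 20 CPM in the higher class, 299 were higher (4.65% of genes tested) and 61 were lower (0.948%). The median ratio over all genes was 0.04. Among genes near the edge of the rule for lower genes, Irak2 was inside, with its weakest mouse at -1.02 on the log2 scale. Sema4a was outside, with its weakest mouse at -0.996.

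Of the 299 higher genes, 185 were in the lists of cell cycle genes, 42 more were replication histones and 72 were in neither. The cycle lists do not hold every cycle gene, and genes with cycle roles, such as Fbxo5 and Spag5, are among the 72. Counts outside the lists, here and below, are therefore not counts of genes unrelated to the cycle. Of the 4 cycle lists, mitosis had the largest median ratio, 3.08, with 115 of 128 tested genes higher. Of 46 DNA replication genes tested 21 were higher, with a median of 1.41, and of 63 genes of homologous recombination and replication stress 44 were higher, with a median of 1.84. Nucleotide synthesis followed with 6 of 16 and a median of 1.15. No gene of these 4 lists was lower. Together, cycle and replication histone genes took 3.70 to 4.32% of the UMIs of the proliferating cells in the 7 mice and 0.702 to 1.07% of those of P5.

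The promoters of 4 of these genes are shown because they carry the short sequences through which cycle genes are known to be timed. TTTGAA is the cell cycle homology region, a mitotic element. CCAAT is bound by NF-Y, and TTTNGCGC is a form of the E2F site. All were searched on both strands, each motif on its own, in RefSeq promoter windows of build GRCm38.p6 that run from 250 bases before to 50 bases after the start. Capitals mark the matches, on either strand. Prc1 crosslinks the spindle midzone and Cdca3 is a mitotic regulator. Asf1b is a histone chaperone that serves replication and Clspn (claspin) links the replication fork to the checkpoint kinase. The mitosis pair and the replication pair are the genes of the largest ratio in their list among those whose window held a match. Genes of a single chromosome were left out of this choice and are not ranked.
Prc1, chr7:80294201-80294500, + strand: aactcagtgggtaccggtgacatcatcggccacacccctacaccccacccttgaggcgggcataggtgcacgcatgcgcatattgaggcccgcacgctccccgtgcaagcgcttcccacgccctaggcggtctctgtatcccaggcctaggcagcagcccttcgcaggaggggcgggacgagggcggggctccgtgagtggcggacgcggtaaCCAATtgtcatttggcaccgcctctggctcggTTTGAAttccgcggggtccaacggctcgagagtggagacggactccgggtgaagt
Cdca3, chr6:124829926-124830225, + strand: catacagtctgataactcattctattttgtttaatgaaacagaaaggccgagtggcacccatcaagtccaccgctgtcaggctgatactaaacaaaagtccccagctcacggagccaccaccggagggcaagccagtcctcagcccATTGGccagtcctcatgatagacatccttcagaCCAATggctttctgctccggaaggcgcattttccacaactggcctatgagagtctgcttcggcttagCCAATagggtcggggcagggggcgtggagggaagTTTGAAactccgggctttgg
Asf1b, chr8:83955444-83955743, + strand: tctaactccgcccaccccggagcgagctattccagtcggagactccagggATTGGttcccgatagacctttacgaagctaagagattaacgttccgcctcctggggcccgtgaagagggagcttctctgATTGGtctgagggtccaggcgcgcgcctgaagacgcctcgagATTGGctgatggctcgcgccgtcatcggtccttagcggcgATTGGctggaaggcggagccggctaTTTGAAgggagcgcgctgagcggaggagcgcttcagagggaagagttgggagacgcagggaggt
Clspn, chr4:126556730-126557029, + strand: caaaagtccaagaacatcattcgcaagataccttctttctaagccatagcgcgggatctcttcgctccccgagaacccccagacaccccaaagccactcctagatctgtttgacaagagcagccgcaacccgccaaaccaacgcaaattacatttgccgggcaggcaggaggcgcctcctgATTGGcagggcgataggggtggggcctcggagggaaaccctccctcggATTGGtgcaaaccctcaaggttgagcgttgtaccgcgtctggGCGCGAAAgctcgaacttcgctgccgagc

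Prc1 was at 202 CPM in the proliferating macrophages and 12.7 CPM in the pool, a log2 ratio of 3.97 ± 0.70 (n = 6 mice). Cdca3 was at 228 against 15.1 CPM, Asf1b at 125 against 13.1 CPM and Clspn at 77.8 against 8.96 CPM. Of the 115 higher mitosis genes, 94 matched a window, and 55 of these (58.5%) held TTTGAA, beside 18.1% of all 27025 windows. CCAAT was in 70.2% of them, beside 37.9% of all windows. Of the 21 higher replication genes, 18 matched, and TTTNGCGC was in 4 of them (22.2%) beside 1.38% of all windows. CCAAT was in 66.7% and TTTGAA in 22.2% of these 18, and TTTNGCGC was in 7.45% of the matched mitosis genes. In the list of recombination and replication stress, TTTGAA was in 30.6%, CCAAT in 77.8% and TTTNGCGC in 8.33%. Of 6 higher nucleotide synthesis genes, 3 held CCAAT and 0 held TTTGAA or TTTNGCGC. Of the 61 genes lower in the proliferating cells, 47 matched, and the shares were 19.1%, 36.2% and 2.13% for the 3 motifs, near those of all windows. A match is a string of letters and not a shown binding site.

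The largest ratios outside the cycle lists belonged to the replication histones, which package newly copied DNA and whose messages mostly lack a poly(A) tail. Hist1h2ap, an H2A gene, was at 3846, 1867 and 2303 CPM in KO mice 1, 2 and 4 and at 2850, 3073 and 2786 CPM in WT mice 1 to 3, while P5 held 26.8 to 115 CPM. The ratio against the pool was 5.40 ± 0.70. H2ac8 followed with 4.93 ± 0.51 and the linker histone H1f5 with 4.35 ± 0.75. Of 48 replication histones tested, 42 were higher, with a median of 2.65. These genes have near-identical copies: 83.3% of their UMIs in the proliferating cells fell in values that were not whole numbers, beside 7.99% of all UMIs, so levels of single histone genes are uncertain.

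The following of the 72 higher genes in neither class were in part chosen for naming after their values were seen. Fbxo5 (Emi1), the inhibitor of the anaphase-promoting complex, was at 85.6, 51.4 and 63.6 CPM in KO mice 1, 2 and 4 and at 55.3, 93.9 and 58.6 CPM in WT mice 1 to 3. In P5 it was at 1.56 to 4.70 CPM, so the ranges did not overlap, and the ratio against the pool was 4.24 ± 0.63. Spag5, a spindle protein, had a ratio of 3.35 ± 0.63, Mastl (Greatwall kinase) 3.14 ± 0.87 and Cdkn3, a phosphatase acting on Cdk2, 3.02 ± 0.82. H2ax, the histone variant phosphorylated at DNA breaks, had a ratio of 3.02 ± 0.51. Arhgef39 stood at 3.71 ± 0.63 and Ankle1, a nuclease, at 3.76 ± 0.76. Gm20628 and Gm20634, named here by their gene models alone, had ratios of 3.99 ± 0.34 and 3.06 ± 0.19.

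Some cell cycle brakes were higher in every mouse. Of 24 genes of cycle entry and its brakes tested, 3 were higher and none lower, with a list median of 0.10. Of all genes tested, 4.65% were higher and 0.948% lower. Cdkn2c (p18), an inhibitor of Cdk4 and Cdk6, was at 78.3, 128 and 59.4 CPM in KO mice 1, 2 and 4 and at 104, 134 and 80.7 CPM in WT mice 1 to 3, against 7.39 to 18.8 CPM in P5. Its ratio was 3.19 ± 0.32 against the pool and its level was above P5 in all 6 mice. Cdkn2d (p19), of the same inhibitor family, had a ratio of 2.24 ± 0.34, and Rbl1 (p107), a pocket protein that restrains E2F genes, 1.83 ± 0.44. The D cyclins did not pass the rule: Ccnd1 was at 148 CPM against 138 CPM in the pool, and Ccnd2 at 76.9 against 66.5 CPM. Myc stood at a ratio of 0.35 ± 0.45 and Cdkn1b (p27) at -0.12 ± 0.21. Cdkn1a (p21) was at 436 ± 97.8 CPM, close to P5 at 410 ± 87.0 CPM and below P1-P2 at 1371 ± 219 CPM.

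The same rule was applied to the cycling against the other T cells of these tumours. KO mouse 3 had enough T cells and was included, so a T cell call had to hold in that mouse as well. In the T cells, 316 of 6606 genes were higher (4.78%) and 19 lower (0.288%). Of the 72 higher genes outside cycle lists and histones in macrophages, 46 were also counted as higher in T cells. A further 16 had a mean T cell ratio over 1 without passing in every mouse. The T cell ratio was under 0.5 for 1 gene, Cep192, a centrosome scaffold, with 1.47 ± 0.30 in macrophages and 0.44 ± 0.23 in T cells. Both classes share libraries, so this is a description of overlap. Among the 61 lower genes, 1 was also counted as lower in T cells (Tcp11l2, at -1.94 in macrophages and -3.10 in T cells), and 28 of the 61 had enough counts to be tested there. A mean T cell ratio under -1 was found for 12 of the 61.

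**Figure D2:**
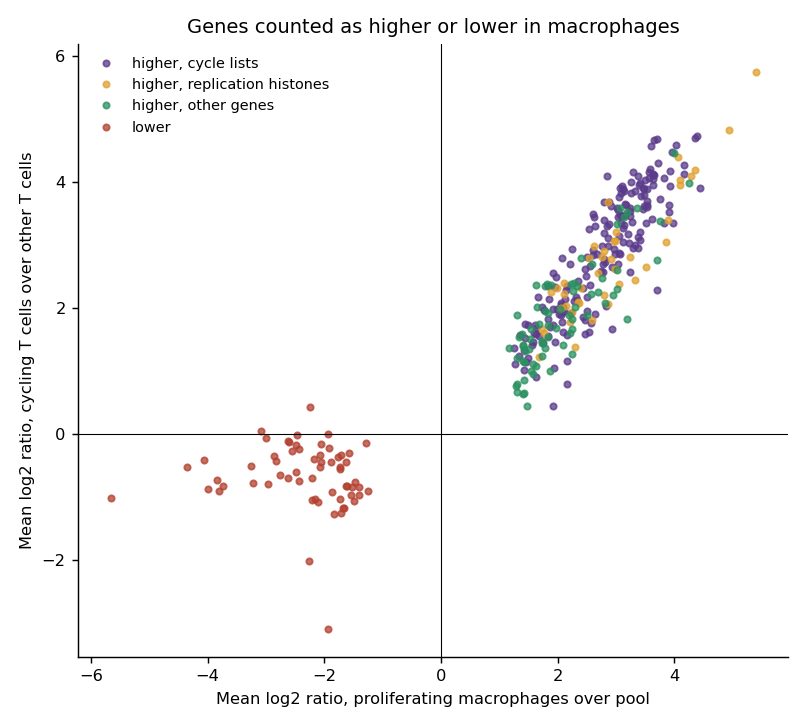
Each point is 1 of the 360 genes counted as higher (299) or lower (61) in proliferating macrophages; the horizontal axis is their mean log2 ratio over the pool and the vertical axis the mean log2 ratio of cycling over other T cells. Higher genes, coloured by class, lie above 0 in both cell types. Of the lower genes, in red, 12 of 61 had a mean T cell ratio under -1. Only 28 of the 61 had enough counts to be tested in T cells, so many red points rest on few counts on that axis.

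Of the 61 lower genes, 42 were in none of the lists. Of 17 monocyte genes tested, 6 were lower and none higher, with a median of -1.94, beside 0.948% of all genes lower. Chil3 (Ym1), a chitinase-like protein of Ly6C-high monocytes, was at 1.45, 69.7 and 8.48 CPM in KO mice 1, 2 and 4 and at 13.1, 7.72 and 153 CPM in WT mice 1 to 3, with a ratio of -5.66 ± 1.67 against the pool. Ly6c2, the classical monocyte surface antigen, was at 21.8, 64.2 and 148 CPM in KO and 26.3, 88.7 and 122 CPM in WT mice, with a ratio of -3.81 ± 1.38. Plac8, a monocyte protein, had a ratio of -4.06 ± 0.87, F10 (coagulation factor X) -4.36 ± 1.35 and Hp (haptoglobin) -3.99 ± 1.89. The chemokine receptor Ccr2, through which monocytes enter tissue, was at 48.4 CPM against 166 CPM in the pool. Slpi (a protease inhibitor), Rgcc, Ly6i, Slc7a11 (the cystine transporter), Thbs1 (thrombospondin 1), Mcemp1 and Hopx had ratios between -3.74 and -2.55.

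Inflammatory genes were among them. Il1b was at 305, 341 and 1616 CPM in KO mice 1, 2 and 4 and at 458, 440 and 439 CPM in WT mice 1 to 3, with KO mouse 4 well above the rest, and had a ratio of -2.17 ± 0.63 against the pool. Il1a had a ratio of -2.21 ± 1.02 and Ptgs2 (cyclooxygenase 2) -2.11 ± 0.50. Ccrl2, a receptor that holds chemerin, stood at -1.77 ± 0.58. Clec7a (Dectin-1) stood at -1.84 ± 0.38, Cd14, the co-receptor for lipopolysaccharide, at -1.52 ± 0.28, and Cd80, a ligand of CD28, at -2.49 ± 1.70. Of 19 inflammatory cytokine and NF-kB feedback genes tested, 3 were lower and none higher, with a median of -1.18, beside 0.948% of all genes lower. Ccrl2, Clec7a, Cd14 and Cd80 come from other lists. There, 2 of 18 chemokine and receptor genes were lower (median -0.44) and 2 of 18 phagocytic and Fc receptors (median -0.38). Of 16 inhibitory and checkpoint genes, 1 was lower (median -0.47). These list values are against the pool. The median of the inflammatory cytokine list was -2.18 against P1-P2, -1.08 against P3 and -0.45 against P5. Counted as lower in these comparisons were 11 of 20, 3 of 19 and 0 of 18 of its genes, beside 3.09%, 1.65% and 0.0468% of all genes.

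Of the 61 lower genes, 57 were lower against P1-P2 alone, 58 against P3 alone and 3 against P5 alone. P5 itself was below the pool for all 61. The mean ratio of the proliferating cells against P5 was also below 0 for all 61. These genes were chosen by the same low values in the proliferating cells, which favours that direction. Chil3 was at 3559 ± 1488 CPM in P1-P2, 1334 ± 704 CPM in P3 and 49.9 ± 41.4 CPM in P5, beside 42.3 ± 59.8 CPM in the proliferating cells. The level of Ly6c2 was 3335 ± 1383 CPM in P1-P2, 1287 ± 671 CPM in P3, 127 ± 57.2 CPM in P5 and 78.6 ± 51.1 CPM in the proliferating cells. Against P5 in the same mouse, Chil3 had a ratio of -1.12 ± 1.06 and was lower in 5 of 6 mice, and Ly6c2 had one of -0.84 ± 1.03 and was lower in 4 of 6 mice. Against P1-P2 alone, 463 of 6510 genes were higher (7.11%), 218 of them outside cycle lists and histones, and 201 lower (3.09%). Against P3 alone, 326 of 6469 were higher (5.04%), 104 of them outside cycle lists and histones, and 107 lower (1.65%). Against P5 alone, 258 of 6413 were higher (4.02%) and 3 lower (0.0468%), and 55 of the 258 were outside cycle lists and histones. With P5 cells called G1 only, 335 of 6435 genes were higher (5.21%) and 8 lower (0.124%), and with the G1 cells of the whole pool 358 of 6442 were higher (5.56%) and 76 lower (1.18%). Against the mo-DCs, the monocyte-derived dendritic cells of the same tumours, 380 of 6676 genes were higher (5.69%), 208 of them outside cycle lists and histones, and 226 lower (3.39%).

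The 3 genes lower than P5 were Gpnmb, Hilpda and Slfn5, named after their values were seen. Gpnmb, a glycoprotein of lipid-laden macrophages, was at 1.45, 0 and 8.48 CPM in KO mice 1, 2 and 4 and at 13.7, 0 and 9.55 CPM in WT mice 1 to 3. In P5 it was at 15.4, 19.2, 53.7, 43.7, 23.2 and 38.5 CPM in the same order, higher in every mouse, with a log2 ratio of -2.95 ± 1.24 that includes the 2 counts of 0. A count of 0 allows up to 11.0 CPM in KO mouse 2 and 7.72 CPM in WT mouse 2. At that bound KO mouse 2 would lie within 2-fold of its P5 at 19.2 CPM, so the call of Gpnmb as lower is not secure. With a mean of 5.53 CPM in the proliferating cells, Gpnmb met the minimum of 20 CPM through P5 alone. Hilpda, a hypoxia-induced lipid droplet protein, was at 85.6, 25.7 and 21.2 CPM in KO mice 1, 2 and 4 and at 15.9, 23.1 and 42.5 CPM in WT mice 1 to 3. Its ratio against P5 was -1.65 ± 0.57, each mouse being lower than its own P5. Slfn5, an interferon-induced Schlafen gene, had a ratio of -1.77 ± 0.80 against P5.

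The hypoxia and tumour macrophage list was lower against each annotation. Its median ratio was -0.92 against P1-P2, -1.59 against P3 and -0.89 against P5, with 4, 12 and 2 of 23, 24 and 24 genes counted as lower. Of all genes, 3.09%, 1.65% and 0.0468% were lower in these comparisons. Hmox1, the heme oxygenase, was at 98.2 ± 27.7 CPM beside 228 ± 75.8 CPM in P5, a ratio of -1.19 ± 0.15 with the weakest mouse at -0.95, and was not counted as lower against P5. Vegfa, the hypoxia-induced angiogenic factor, was at 118, 44.0 and 127 CPM in KO mice 1, 2 and 4 and at 67.3, 97.7 and 187 CPM in WT mice 1 to 3, with a ratio of -2.18 ± 0.59 against the pool and -1.45 ± 0.51 against P5. Spp1 (osteopontin) and Arg1 (arginase 1) varied widely between mice, with ratios of -1.80 ± 1.48 and -1.89 ± 0.99 against the pool, and were not counted as lower.

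**Figure D3:**
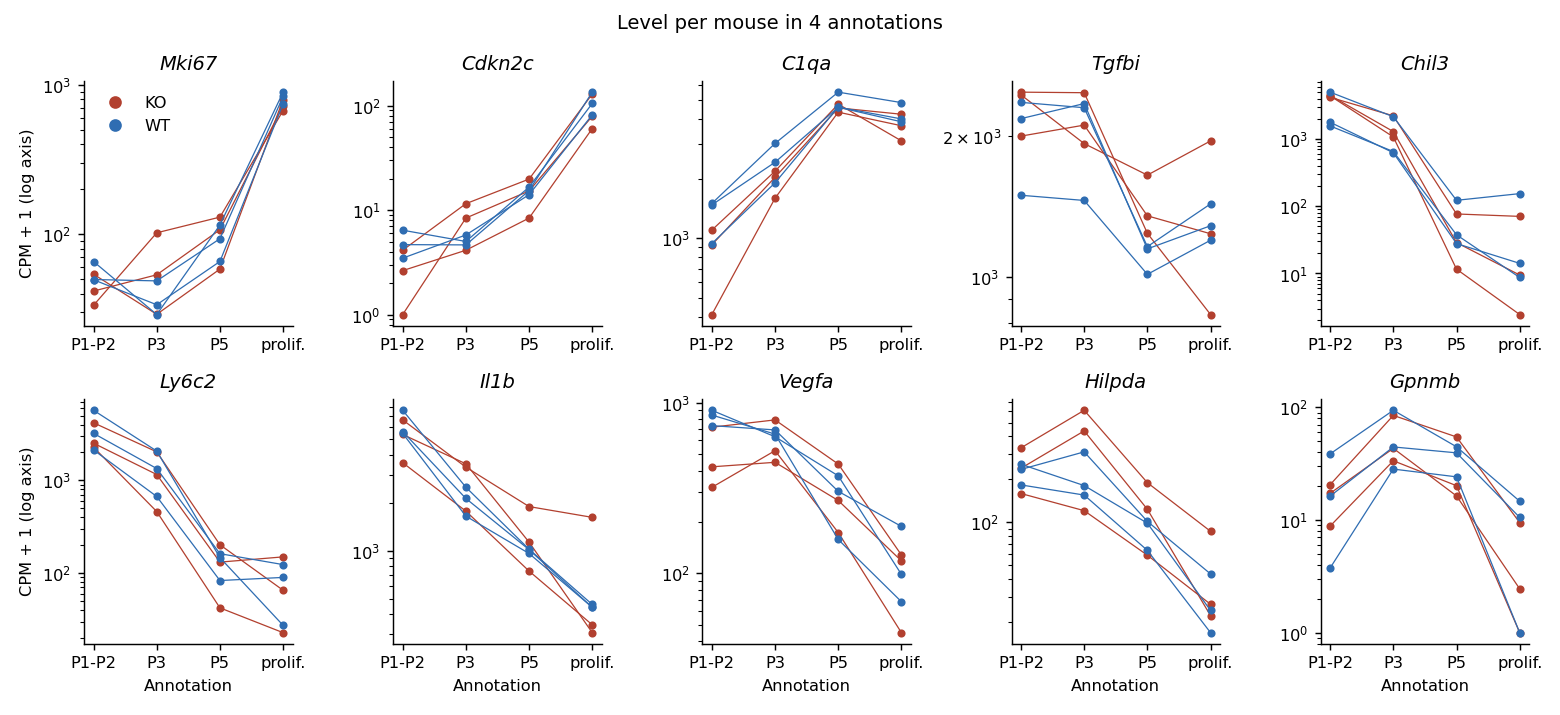
Level of 10 genes in Monocytes (P1-P2), Macrophages (P3), Macrophages (P5) and the proliferating macrophages (prolif.), as CPM plus 1 on a log axis, with an axis range of its own per gene and 1 line per mouse for 6 mice, KO in red and WT in blue. Mki67 and Cdkn2c are highest in the proliferating cells, Chil3 and Ly6c2 are down in both P5 and proliferating cells, and Hilpda, Vegfa and Gpnmb are lower in the proliferating cells than in P5.

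Genes of the mature macrophage were near the level of P5 or below it. C1qa, a chain of complement C1q, was at 3715, 4248 and 3114 CPM in KO mice 1, 2 and 4 and at 4022, 4866 and 3890 CPM in WT mice 1 to 3, beside a mean of 4738 ± 396 CPM in P5, 2195 ± 491 in P3 and 1058 ± 406 in P1-P2. Apoe, the lipid carrier, was lower than P5 in all 6 mice, with a mean of 11557 ± 3376 CPM beside 19718 ± 5689 CPM and a ratio of -0.77 ± 0.17. Csf1r, the receptor through which macrophages are sustained, was at 559 ± 89.8 CPM beside 695 ± 68.6 CPM. Over 23 mature macrophage genes tested the median ratio was 0.75 against P1-P2, -0.04 against P3 and -0.43 against P5. Against P1-P2, 8 of them were higher, beside 7.11% of all genes, and against P5 none was higher or lower. The median of all genes was 0.18, 0.09 and 0.01 in these comparisons.

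Interferon response genes had a median of -1.59 against P1-P2, -0.60 against P3 and -0.34 against P5. Of 37 tested against P1-P2, 11 were lower, beside 3.09% of all genes. The list had 1 of 37 lower against P3, 1 of 37 against the pool and 1 of 36 against P5. MHC class II presentation had a median of -0.70 against the pool without a gene that passed. Its invariant chain Cd74 was at 931 CPM in WT mouse 1 and 5661 to 14266 CPM in the other 5 mice. Ribosome biogenesis had a median of 0.35 and oxidative phosphorylation of 0.21 against the pool, with no gene passing the 2-fold rule. Ncl (nucleolin) was at 544 ± 68.6 CPM beside 383 ± 54.2 CPM in P5, a ratio of 0.51 ± 0.20. Glycolysis had a median of -0.42 against the pool and -0.18 against P5. Genes induced by tissue dissociation had a median of -0.45 against the pool, with 15 of 16 below 0. For proliferating cells called G2M over P5 cells called G2M it was 0.29, with 4 of 16 below 0. In cycling over other T cells it was -0.99, with 16 of 16 below 0. The T cell medians were -0.59 for interferon, -0.91 for MHC class II, 0.50 for ribosome biogenesis and 0.42 for oxidative phosphorylation. That of glycolysis went the other way, at 0.46. The part of handling in the inflammatory genes, some of which respond to it as well, was not tested.

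**Figure D4:**
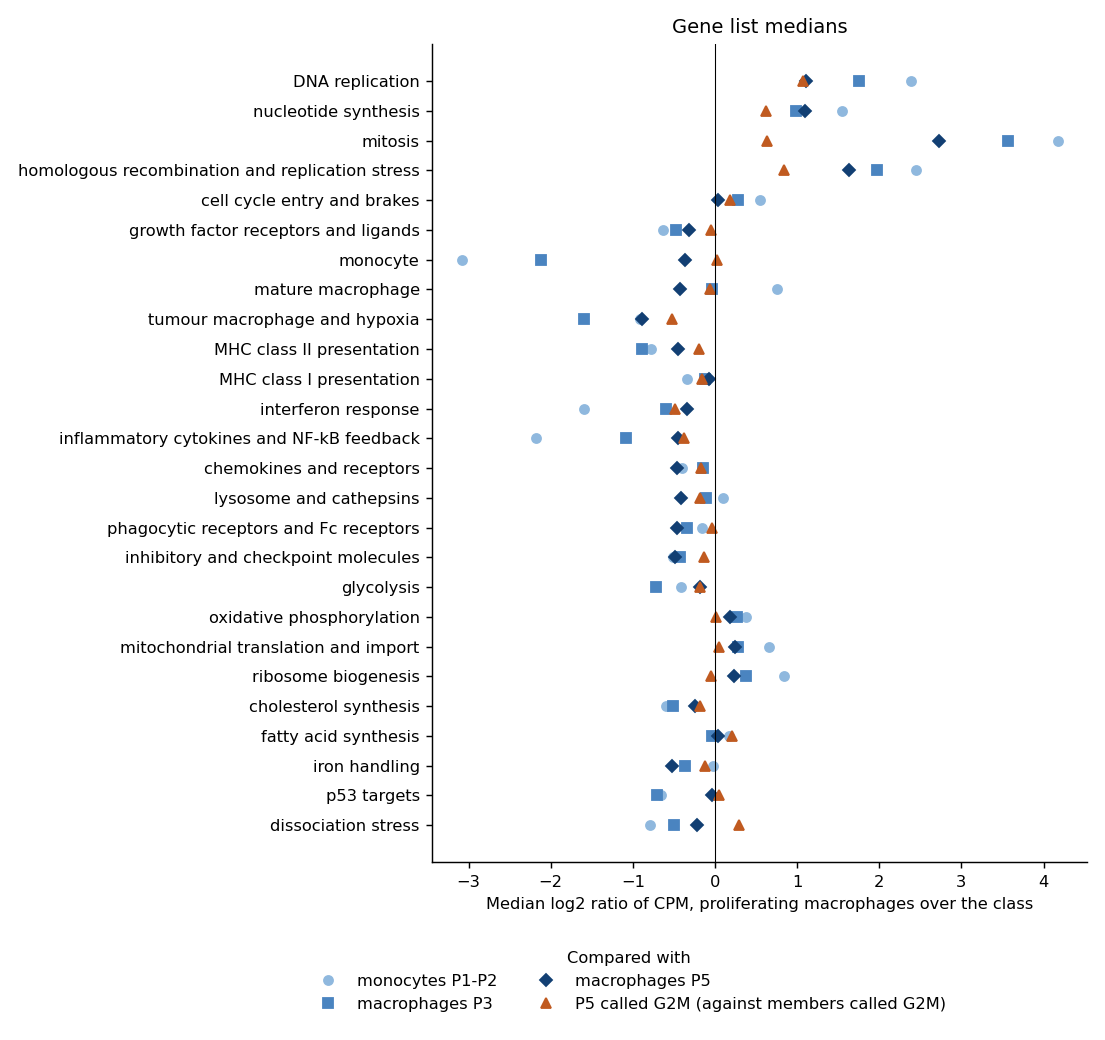
Median log2 ratio of CPM over the tested genes of each list (rows), for the proliferating macrophages over Monocytes (P1-P2), Macrophages (P3), Macrophages (P5), and for those called G2M over P5 cells called G2M. Monocyte genes are at -3.08 against P1-P2 and at -0.37 against P5, and mitosis genes fall from 2.73 against P5 to 0.63 when both sides are G2M cells.

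With cycle genes and genes raised in cycling T cells left out, the profile was most like P5 in 6 of 6 mice. Pearson's r across 5437 to 5871 genes of log2(CPM + 1) was 0.930 ± 0.026 (SD over 6 mice) with P5, 0.865 ± 0.030 with P3 and 0.778 ± 0.041 with P1-P2. It was 0.756 ± 0.047 with the mo-DCs, 0.752 ± 0.038 with microglia in the 3 mice with enough of them, and 0.653 ± 0.035 with cDC1. Genes are not independent replicates, and both profiles of a pair come from the same library. P5 sums also rest on more cells than those of the other annotations, with a pooled 3459 cells.

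P5 was not free of cycling cells, holding 465 cells called S and 228 called G2M among its 3459. The UMI share of cycle and replication histone genes was 0.579 to 0.658% in P5 cells called G1, 0.946 to 1.75% in S and 1.80 to 2.62% in G2M. These ranges are over 7 mice. The 336 proliferating macrophages called G2M held 3.77 to 4.37% in the 6 mice other than KO mouse 3 and 4.46% in the few cells of KO mouse 3, above the P5 cells of the same call in each mouse. The 117 mo-DCs called G2M held 3.13 to 5.18% in 6 mice. The highest was that of the 11 cells of KO mouse 3, above the 4.46% of its proliferating macrophages. In KO mice 1, 2 and 4 the mo-DCs held 3.13, 3.69 and 3.22%, beside 4.09, 4.32 and 3.77% in proliferating macrophages. In WT mice 2 and 3 they held 3.86 and 3.67%, beside 4.37 and 3.91%. Mki67 was at 734 to 991 CPM in proliferating macrophages and 332 to 712 CPM in P5 cells called G2M of those 6 mice, and at 1094 and 835 CPM in KO mouse 3. The S or G2M share of P5 was 29.4%, 13.9%, 8.16% and 8.67% in KO mice 1 to 4 and 31.6%, 13.1% and 29.2% in WT mice 1 to 3.

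**Figure D5:**
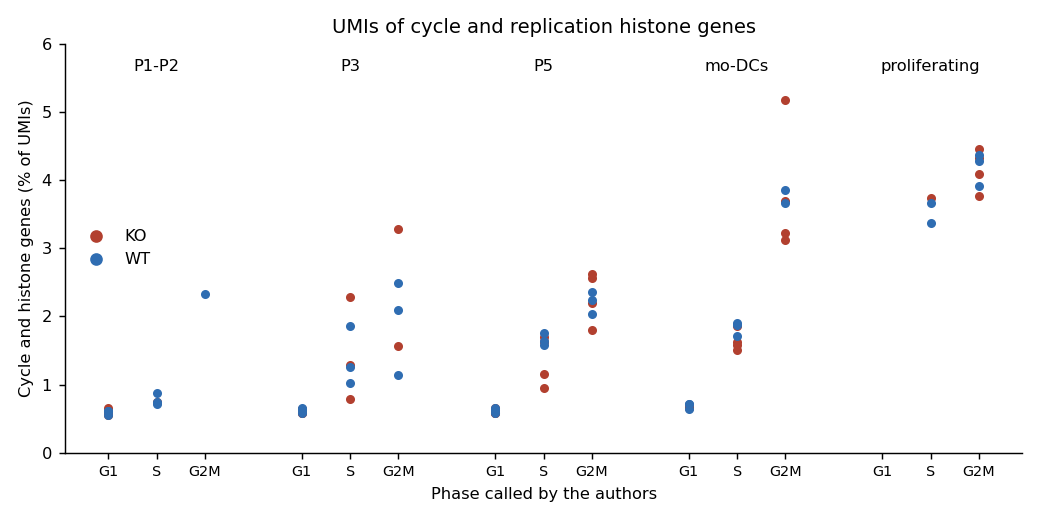
Percent of UMIs from cycle-list and replication histone genes by annotation and by the authors' phase call, 1 point per mouse with enough cells, KO in red and WT in blue. Proliferating macrophages called G2M lie at 3.77 to 4.46%, the highest being the 8 cells of KO mouse 3, and P5 cells called G2M at 1.80 to 2.62%.

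A comparison of G2M cells only, added after the data were seen, set proliferating macrophages called G2M against P5 cells called G2M in 5 mice. Here 38 of 6452 genes were higher (0.589%) and 0 were lower. Of the 38, 14 were in the cycle lists, 20 were replication histones and 4 were others, namely Fbxo5, Cdk2, Znhit2 and Gm20634. Fbxo5 had a ratio of 3.52 ± 1.47 (n = 5), H1f5 of 3.21 ± 1.22 and Top2a of 1.39 ± 0.27, whereas Mki67 had one of 0.54 ± 0.32. The 14 cycle genes included Tk1, Rrm2 and Dut, enzymes of nucleotide supply, Slbp, the histone message binding protein, and Brca1. The median of the monocyte list was 0.02, of the mature macrophage list -0.06, of the hypoxia list -0.52 and of the interferon list -0.49 in this comparison, beside -0.01 over all genes. Chil3 had a mean ratio of 0.83 ± 0.97 and Ly6c2 of 0.32 ± 1.25, each within its spread of 0, and 6 of the 13 monocyte genes tested had a mean below 0. Gpnmb had a mean ratio of -2.42 ± 1.36 and did not pass the rule.

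With a minimum of 20 cells in both phases, the phases within the proliferating macrophages could be compared in WT mouse 1 alone. It had 109 cells called G2M and 27 called S, so there is no replicate. Genes were named as markers of each phase or by size. The authors' phases were called from expression, so the direction of phase markers follows from the calls. Their values are a description and give no support to the calls, in this mouse or in others. Ccnb1, the mitotic cyclin, was at 89.8 CPM in G2M and 11.8 CPM in S cells, and Cdc20, the activator of the anaphase-promoting complex, at 74.2 and 14.7 CPM. The replicative helicase genes went the other way: Mcm5 was at 65.3 CPM in G2M and 194 CPM in S cells, and Mcm6 at 70.8 and 226 CPM. Below the minimum, Mcm5 was at 42.7 CPM in G2M and 122 CPM in the 13 S cells of KO mouse 1. In WT mouse 3 it was at 58.3 CPM in G2M and 94.2 CPM in 10 S cells. Pcna, the sliding clamp, was at 171 and 485 CPM, and Ccne2, a cyclin of S phase entry, at 5.44 and 67.6 CPM. Outside the cycle, Arg1 was at 38.8 CPM in G2M and 150 CPM in S cells and the chemokine Ccl6 at 59.2 and 191 CPM, while Ifitm1 was at 98.7 and 8.82 CPM. Of 6984 genes, 411 were past 2-fold higher in G2M (5.88%) and 370 past 2-fold lower (5.30%), with cells of 1 mouse.

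The genotype was compared within the proliferating macrophages of 3 KO and 3 WT mice with edgeR's quasi-likelihood test on summed UMIs. Siglece, the targeted sialic acid receptor, was at 58.0, 33.0, 64.6 and 63.6 CPM in KO mice 1 to 4 and at 73.4, 100 and 28.6 CPM in WT mice 1 to 3. The groups overlapped, and the log2 change in KO was -0.24 (SE 0.45, edgeR adjusted p = 0.997). Sall1, the locus of the driver, had 4.38 CPM in WT mouse 1 and a count of 0 in the other mice, below the filter. The other receptors of the family were Cd33, with a log2 change of 0.10 (SE 0.30), and Siglec1, with -0.71 (SE 0.35), and neither passed (edgeR adjusted p = 0.997 for both). Siglech, Siglecg, Siglecf and Cd22 had too few counts to be tested.

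No gene passed an adjusted p of 0.05 between genotypes among 6459 tested (0% called), with 238 at an unadjusted p under 0.05. DESeq2 also called 0, with 106 at that unadjusted p. In simulated data made from these libraries, the same fit recovered 43% of genes changed 2-fold and 85% of genes changed 4-fold. Every simulated gene had the same spread between mice (coefficient of variation 0.2075), so the recovery of genes that vary more was not measured. Changes of 2-fold, and larger changes in such genes, could be missed. In the pool, 0 of 12296 genes passed in the same fit (0%), and 553 had p under 0.05 before adjustment.

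The smallest p belonged to Cirbp, a cold-inducible RNA-binding protein. It was at 109, 125, 86.1 and 72.1 CPM in KO mice 1 to 4 and at 36.7, 38.6 and 33.0 CPM in WT mice 1 to 3, without overlap, and had a log2 change of 1.56 (SE 0.26, edgeR adjusted p = 0.0806). It passed in 4 of 14 alternative fits. In the pool, KO mouse 4 was at 40.2 CPM, the other KO mice at 79.0 to 98.8 CPM and the WT mice at 25.2 to 36.1 CPM. Its change there was 1.23 (SE 0.29) and did not pass (edgeR adjusted p = 0.995). The difference between the 2 changes was 0.25 (SE 0.23, edgeR adjusted p = 1.00). Rrad, a small GTPase, had a change of 2.32 (SE 0.44, edgeR adjusted p = 0.212) and Ift27, a cilium transport protein, 1.20. Lower in KO with the smallest p was Trib1, a pseudokinase of myeloid cells, at -1.53 (SE 0.33, edgeR adjusted p = 0.50). Map11 at -1.73 (SE 0.42) and the monocyte chemokine Ccl2 at -1.04 (SE 0.26) came next, both at an edgeR adjusted p of 0.95. Map11 passed in 2 of 14 alternative fits, those with no filter and with a block by replicate number, and was at -1.11 without KO mouse 1. Trib1 and Ccl2 passed in 1 of 14 each.

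Gene lists were not called between genotypes, and their medians are given as a description. Of 35 interferon genes tested, 30 had a lower and 5 a higher estimate in KO, with a median of -0.54 beside 0.00 over all genes, and in the pool the median was -0.57. Ifit2, an interferon-induced RNA-binding protein, had a change of -1.44 (SE 0.41), between -2.20 without KO mouse 4 and -0.95 without KO mouse 1. Of 10 MHC class II genes, 9 had a higher estimate in KO, with a median of 1.05 beside 0.48 in the pool. Ciita, of this list, was at 3.28 CPM in WT mouse 1 and at 15.4 and 24.3 CPM in WT mice 2 and 3. Its change of 1.54 (SE 1.06) fell to 0.80 without WT mouse 1 and to 0.74 without KO mouse 4. H2-DMb2, which helps load class II peptides, was at 30.8, 23.8, 47.9 and 106 CPM in KO mice 1 to 4 and at 11.8, 23.1 and 10.2 CPM in WT mice 1 to 3, and had a change of 1.84 (SE 0.56, edgeR adjusted p = 0.997). The highest value was that of KO mouse 4, without which the change was 1.08, and with the replicate block it was 0.94. Mature macrophage genes had 21 of 23 lower estimates, with a median of -0.19 and -0.18 in the pool. Of 129 mitosis genes 63 were higher and 66 lower, with a median of -0.01, and the replication list had a median of 0.04.

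The test of whether the genotype difference in proliferating macrophages departs from that in the pool called 4 of 11380 genes (0.0351%). Rrad had a difference of 2.08 (SE 0.40, edgeR adjusted p = 0.0320). It was at 43.5, 22.0 and 29.7 CPM in proliferating cells of KO mice 1, 2 and 4 and at 6.57, 10.3 and 6.08 CPM in WT mice, while in the pool the KO mice were at 27.8, 20.2 and 30.4 CPM and the WT mice at 24.2, 31.6 and 16.6 CPM. These values rest on 4 to 30 UMIs per mouse in the proliferating cells. Adam19, a membrane protease, had a difference of 3.16 (SE 0.61, edgeR adjusted p = 0.0320) and rested on 2 to 13 UMIs per mouse. Rrad passed in 5 and Adam19 in 7 of 12 alternative fits. With P5 alone as the pool the edgeR adjusted p was 0.0534 for Rrad and 0.117 for Adam19, with P3 and P5 it was 0.0973 for both, and with G1 cells alone 0.0654 and 0.0731. Against P1-P2 alone, Rrad had an edgeR adjusted p of 0.175. The call on Rrad was also lost without KO mouse 1 (edgeR adjusted p = 0.557), KO mouse 2 (0.053) or WT mouse 1 (0.425), and that on Adam19 without KO mouse 4 (0.781) or WT mouse 1 (0.705). Igkv3-7 and Ighg2c, immunoglobulin genes of B cells and plasma cells, had differences of -4.28 and -3.75 (edgeR adjusted p = 4.55e-05 and 0.00944). Igkv3-7 had 138 UMIs in the proliferating cells of WT mouse 2, 21 in KO mouse 4 and 0 in the other mice of the fit, so that 1 WT mouse set its direction. Without WT mouse 2 the difference was 1.72 and without KO mouse 4 it was -6.17 (edgeR adjusted p = 1.00 in both fits). Ighg2c had 58 UMIs in WT mouse 2, 3 in KO mouse 4 and 0 in the others, and its call was lost without either of these mice (edgeR adjusted p = 1.00 in both fits).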

How the data were processed

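Per the labels' protocols, cells were profiled with 10x 5′ single-cell RNA-seq. Per the submitters' processing notes, FastQC 0.11.5, STARsolo, STAR 2.7.10a and build mm10 were used, with no role or order given. The authors deposited 1 matrix of estimated counts of UMIs, not scaled, 55491 gene rows by 28644 cells, in which 7.51% of non-zero values were not whole (tolerance 1e-06), and a cell table with their phase, annotation and quality percent values. Doublet handling is not given in the sources used here, and no caller was run. Library totals were 16037214 to 38966377 UMIs.

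Counts were summed per mouse and annotation, and sums were rounded for count tests. Ratios used CPM plus 1 in mice with at least 20 cells on both sides, and genes of at least 20 CPM in the higher class. Genotype was tested with edgeR 4.0.16 (TMM, filterByExpr, robust quasi-likelihood, Benjamini-Hochberg), the difference between classes with 1 term per mouse, and DESeq2 1.42.0 as an alternative, in R 4.3.3. Shares used exact permutation tests. Labels do not say whether mice were processed together, and p-values measure the spread between these mice. Scripts were tested on simulated data: the ratio rule recovered 100 of 100 raised and 99 of 100 lowered genes at 8-fold with 0 false calls. All genes of that simulation had the same spread between mice, and unchanged genes had equal means. Calls of genes that vary more, or changed less, were therefore not measured. The simulated genotype fit gave 2 false calls. That of the difference between classes recovered 72% at 4-fold with 5 false calls. Sex, read from Xist and Y-linked genes, was an alternative term.

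Named genes were the markers, up to 12 higher and 12 lower genes with the largest mean ratio (at least 50 CPM) outside the cycle lists, up to 4 members per list, and for genotype the 3 smallest p in each direction, the Siglec genes and up to 2 members per list. The members, the gene lists and the rules were chosen with earlier results of these data known. The result of the B cell marker list is not reported here.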

Additional observations from a re-analysis of the deposited data

Results flagged for a closer look

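KO mouse 1 stood apart from the other KO mice in 2 of 9 measures examined in the group of 4, where chance marks about 1 in 20 groups. Its proliferating macrophages were 11.1% of the monocytes and macrophages, with 2.28 to 3.42% in the other KO mice, and the median was 18768 UMIs per cell, with 6817 to 8413 in the others. The whole library of KO mouse 1 was deeper per cell, with a median of 9554 UMIs over all its cells beside 4479 to 5673 in the other KO mice, and 12693 in its P5 cells beside 4577 to 8400 in theirs.

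The genotype difference departed from that of the non-cycling pool for 4 genes by the edgeR test of the difference itself. The log2 difference was 2.08 for Rrad, 3.16 for Adam19, -4.28 for Igkv3-7 and -3.75 for Ighg2c, the latter pair resting on WT mouse 2 (138 and 58 UMIs) and KO mouse 4 (21 and 3 UMIs), with neither called without either mouse (edgeR adjusted p = 1.00).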

How the results depend on the processing

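Genes higher than the comparison class numbered 299 against the pool and 463 against P1-P2 alone, 93 at a minimum of 100 CPM and 38 among G2M cells against P5 G2M cells. Outside cycle lists and histones these were 72, 218, 17 and 4, with 208 against mo-DCs, 114 against G1 cells only, 112 at a minimum of 5 CPM and 49 with TMM factors. Lower genes numbered 61 against the pool, 201 against P1-P2, 107 against P3, 3 against P5, 226 against mo-DCs, 101 with equal weight per annotation, 32 at 100 CPM, 92 with TMM factors (which moved the median of all genes from 0.04 to -0.15) and 0 among G2M cells. Leaving out 1 mouse gave 300 to 331 higher and 68 to 82 lower genes, with 293 to 298 of the 299 and 60 to 61 of the 61 among them. A gene past 2-fold in every mouse stays past it in fewer mice, and only the CPM minimum can remove it. These counts therefore cannot show whether the result depends on 1 mouse. Among G2M cells the ratio turned positive for Chil3 (0.83), Plac8 (0.029), Hp (0.29), Ly6c2 (0.32), Slpi (0.70), Hopx (1.49) and Ccr2 (0.20) and negative for Cdkn3 (-0.53). Against mo-DCs it turned for Thbs1 (1.15), Gpnmb (0.0049), Hmox1 (1.20), Il1a (0.82) and Cd14 (1.05). The r with P5 was 0.876 with cycle genes kept. With a pseudocount of 5, 244 genes were lower in G2M than in S cells of WT mouse 1.

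The difference in the share of proliferating macrophages, KO minus WT, ran from -3.36 percentage points without KO mouse 1 to 0.10 without WT mouse 1, and was 0.94 in the females alone (KO mice 1 and 2 and a single WT mouse, WT mouse 3, so without a test), where S or G2M cells of the pool were 0.77 points higher. Genotype calls numbered 1 with whole-valued rows only, 23 with no filter, and 0 to 6 with 1 mouse left out, the 6 without KO mouse 4 and 1 without WT mouse 2. The replicate block, where only numbers 1 and 2 are shared and the correlations of same-numbered mice were 0.077 and 0.036, gave 9. The log2 change of Siglece ran from -0.71 with the replicate block to 0.24 with sex as a term, and with 1 mouse left out from -0.65 without WT mouse 3 to 0.053 without WT mouse 2. That of Cd33 ran from -0.18 without KO mouse 2 to 0.48 without KO mouse 1 (-0.03 without WT mouse 3). It was -0.20 with the replicate block and -0.066 with KO mouse 3 kept. That of Siglec1 ran from -0.92 without WT mouse 2 to -0.35 without KO mouse 1. Calls of the difference between classes numbered 2 against P3 and P5, 2 against P5, 2 against G1 cells, 12 with no filter and 3 to 12 with 1 mouse left out (12 without KO mouse 1 or WT mouse 3). The difference of Igkv3-7 ran from -6.17 without KO mouse 4 to 1.72 without WT mouse 2. The cause was not tested. With 10 to 138 cells per mouse, depth limits what could be seen in genes of few UMIs.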
